A study of Mus musculus with 2 samples.

Results

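The lysosome and vacuolar ATPase (V-ATPase) genes of mouse bone marrow basophils and their neighbours are described here. The set was made of 20 named lysosomal symbols (Lamp1, Lamp2, Cd63, Cd68, Ctsa, Ctsb, Ctsd, Ctsl, Ctss, Ctsz, Hexa, Gaa, Gusb, Psap, Npc1, Npc2, Grn, Lgmn, Tfeb and Mcoln1) and of every gene whose symbol starts with Atp6v or Atp6ap, which added 25. These were 45 of the 31053 genes in the tables, chosen by name. At least 1 unique molecular identifier (UMI), the tag that counts a captured RNA molecule, was found for 41 of the 45 in kept cells. Atp6v1g3, Atp6v0a4, Atp6v1b1 and Atp6v1e2 had 0 UMIs in both libraries, where 3 UMIs correspond to 0.0329 CPM (UMIs of a gene per 1e+06 UMIs) in the deeper library and 0.131 CPM in the other.

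Lysosomes are acidic organelles in which proteins, lipids and sugar chains are broken down by hydrolases. Their lumen is acidified by the V-ATPase, a proton pump built from a membrane sector (V0) that carries the protons and a cytosolic sector (V1) that hydrolyses ATP. In basophils and mast cells the secretory granules share membrane proteins with lysosomes, and Cd63 on the cell surface is a textbook sign of degranulation. Macrophages and other phagocytes are known for large lysosomal compartments.

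The cells came from FVB mouse bone marrow, sorted as E-cadherin+cKIT+ (cKIT+) or E-cadherin+cKIT- (cKIT-) and sequenced as 1 single-cell library each. The sample labels give no genotype beyond the strain, while the text of the study describes wild-type and Vav-iCre;mTmG animals, in which a Cre driven by the Vav promoter switches on a reporter in blood cells. The study describes several donor mice, and no label tells the animals of a library apart. After filtering, 6479 cKIT+ and 3662 cKIT- cells remained, with a median of 13039 and 4416.5 UMIs per cell, and 10 cell barcodes occurred in both libraries. Because each sort was 1 library, there was no replicate and no test was made. Intervals are 95% intervals for counting error only, and the difference between sorts cannot be told apart from a difference between libraries. Kit, the gene of the sorting marker, had 37.1 CPM in the cKIT+ library and 0.875 CPM in the cKIT- library, and Cdh1, which encodes E-cadherin, had 62.8 and 193 CPM.

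The promoter sequences of the genes were examined for CACGTG, the core of the element through which the transcription factor TFEB is known to act on lysosomal genes, and for the longer form TCACGTGA. Both read the same on either strand, and the longer form contains the shorter. Windows from 250 bases before to 50 bases after the RefSeq start site were at hand for 36 of the 45 genes (GRCm38.p6). CACGTG was in a window of 11 of these 36 genes (30.6%), against 8.09% of all 27025 genes with a window. TCACGTGA was in 6 of 36 (16.7%), against 1.12% of all genes. In 48 windowed genes of a second list of 65 other lysosome genes the shares were 31.2% and 12.5%. A match describes letters in the window and no binding was measured.

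The 8-base form is printed with its neighbouring bases, the matched bases in capitals, since the genes that carry it include Ctsd, the gene that differed most between the sorts, and 3 V-ATPase subunits.
Ctsd, 99 bases before the start site, chr7:142387919-142387926, minus strand: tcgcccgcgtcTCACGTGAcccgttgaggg
Atp6v0d1, 4 bases before, chr8:105566061-105566068, minus strand: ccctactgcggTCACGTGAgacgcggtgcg
Atp6v1a, 132 bases before, chr16:44139384-44139391, minus strand: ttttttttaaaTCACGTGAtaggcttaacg
Atp6v0e, just after the start site, chr17:26676398-26676405, plus strand: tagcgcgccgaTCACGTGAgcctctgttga
Ctsa, 13 bases before, chr2:164833760-164833767, plus strand: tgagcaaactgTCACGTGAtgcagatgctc
Ctsa, a further match just after the start site, chr2:164833777-164833784, plus strand: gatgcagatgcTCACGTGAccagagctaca
Mcoln1, 46 bases before, chr8:3500473-3500480, plus strand: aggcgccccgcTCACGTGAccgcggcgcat

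The 250 bases before the start site of Ctsd and Atp6v0b, which were higher in cKIT- cells, and of Atp6v0a1, which was lower in them, are given for comparison, with CACGTG and TCACGTGA in capitals. Atp6v0b held CACGTG at 36 and 18 bases before the start site, and Atp6v0a1 held no match in its window. In the GENCODE annotation the Atp6v0a1 window lies wholly inside the span of the gene (chr11:101009452-101063719, plus strand), and the Ctsd window lies mostly inside its span (chr7:142375911-142388038, minus strand), so the former is not upstream of the gene there. The TCACGTGA matches printed above for Ctsd, Atp6v1a, Atp6v0e, Ctsa and Mcoln1 also lie inside the gene spans there, and that of Atp6v0d1 lies outside. The windows printed here were chosen by direction after the values were seen. CACGTG was also in the windows of Gaa, 140 bases before the start site, and Ctsl, 236 bases before, which had ratios of 0.706 and 0.728 of cKIT- over cKIT+.
Ctsd, chr7:142387828-142388077, minus strand: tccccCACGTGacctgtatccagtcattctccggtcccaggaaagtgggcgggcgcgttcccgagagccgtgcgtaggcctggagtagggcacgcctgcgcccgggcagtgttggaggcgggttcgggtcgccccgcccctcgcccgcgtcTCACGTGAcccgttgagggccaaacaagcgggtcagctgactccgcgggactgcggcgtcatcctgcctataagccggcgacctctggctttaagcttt
Atp6v0b, chr4:117887330-117887579, minus strand: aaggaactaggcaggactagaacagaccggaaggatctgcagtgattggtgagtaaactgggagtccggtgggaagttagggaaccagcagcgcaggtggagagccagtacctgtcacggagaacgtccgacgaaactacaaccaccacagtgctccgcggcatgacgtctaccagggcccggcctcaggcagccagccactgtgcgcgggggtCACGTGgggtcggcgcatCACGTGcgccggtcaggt
Atp6v0a1, chr11:101010148-101010397, plus strand: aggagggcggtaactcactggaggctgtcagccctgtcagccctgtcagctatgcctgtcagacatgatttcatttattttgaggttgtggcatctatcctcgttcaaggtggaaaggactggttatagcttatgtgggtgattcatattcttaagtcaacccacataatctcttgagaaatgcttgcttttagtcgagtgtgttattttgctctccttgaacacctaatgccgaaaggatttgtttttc

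To see how the genes differed between the sorts, UMIs were summed over all kept cells of a library and scaled to CPM. Most were modestly higher in cKIT- cells, and Ctsd stood apart. Of the 31 genes with a mean of at least 10 CPM over the libraries, 25 had a ratio of cKIT- over cKIT+ above 1, with a median log2 ratio of 0.34 against 0.04 for all 7595 genes at that level, of which 52.9% were above 1. With equal weight per cell 21 of the genes were above 1 and the median was 0.12, beside 0.00 for all genes. Without the 10 most abundant genes in the scaling it was 0.44, where the median of all genes also rose, to 0.14. Of the 31, Ctsd passed 2-fold and 0 were lower by 2-fold, where 8.44% of all genes were at least 2-fold higher and 6.06% at least 2-fold lower. The V-ATPase genes summed to 2232 CPM in cKIT- and 1738 CPM in cKIT+ cells, 1.28 times higher (1.27 to 1.30). The lysosomal genes summed to 5163 and 3822 CPM, a ratio of 1.35 (1.34 to 1.36). Most of this difference came from Cd63 and Ctsd, and 5 of the 16 lysosomal genes measured had a ratio below 1.

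**Figure D1:**
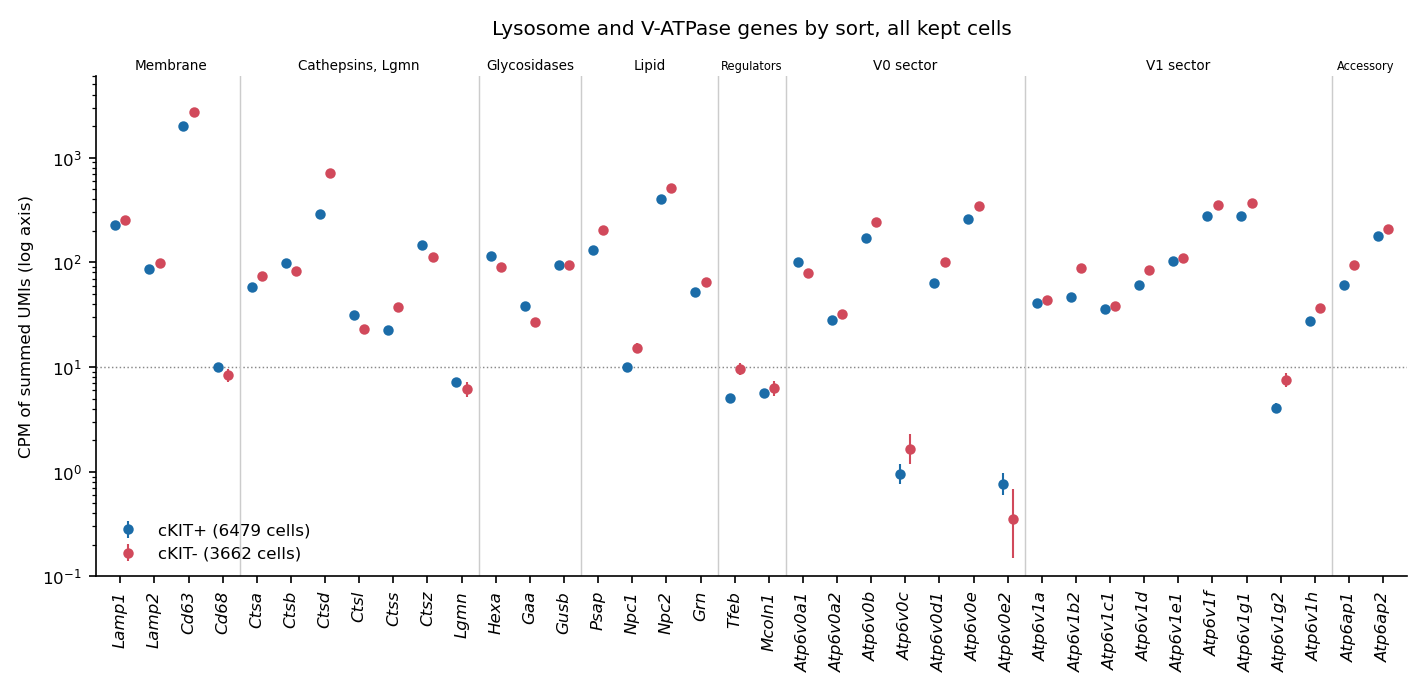
CPM of summed UMIs (log axis) for 38 lysosome and V-ATPase genes in all kept cKIT+ cells (blue) and cKIT- cells (red), grouped by role. Bars are 95% Poisson intervals for counting error, and the dotted line marks 10 CPM; Ctsd shows the widest gap among the genes above that line, at 291 and 718 CPM.

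Among the membrane proteins, Cd63, a tetraspanin of late endosomes, lysosomes and granules (chr10:128900989-128912822), had 1985 CPM in cKIT+ and 2722 CPM in cKIT- cells, a ratio of 1.37 (1.36 to 1.38). Lamp1 and Lamp2, the heavily glycosylated coat proteins of the lysosomal membrane, had ratios of 1.11 (1.08 to 1.14) and 1.15 (1.09 to 1.20). Lamp1 turned to 0.889 when each cell was given the same weight and to 0.975 when each cell was thinned to 2000 UMIs. Cd68, a membrane protein typical of macrophages, had 9.94 and 8.35 CPM and lay below the minimum level. For Cd63, 49.4% of the 56-base read positions in the last 500 bases of the transcript also occur in the pseudogene Cd63-ps, which is no row of these tables.

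The proteases went in different directions. Ctsd, which encodes the aspartic protease cathepsin D, had 291 CPM in cKIT+ and 718 CPM in cKIT- cells, 2.47 times higher (2.42 to 2.51). Ctss, a cysteine cathepsin of antigen-presenting cells, had 22.5 and 37.7 CPM, 1.68 times higher (1.55 to 1.82). Ctsa, the carboxypeptidase that protects other hydrolases, had a ratio of 1.26 (1.20 to 1.34). The cysteine proteases Ctsl, Ctsz and Ctsb had ratios below 1, at 0.728 (0.662 to 0.799), 0.763 (0.732 to 0.796) and 0.837 (0.796 to 0.880). Within the basophil-gated cells described below, Ctsb went the other way and was higher in the cKIT- library. Lgmn, the asparaginyl endopeptidase legumain, had 7.17 and 6.12 CPM.

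Of the hydrolases of sugar chains, Hexa (the alpha subunit of hexosaminidase) and Gaa (acid alpha-glucosidase) were lower in cKIT- cells, with ratios of 0.782 (0.745 to 0.820) and 0.706 (0.646 to 0.769), and the interval for Gusb (beta-glucuronidase) included 1, at 1.01 (0.960 to 1.06). The genes of lipid handling were higher. Psap, the precursor of the saposins, had 132 and 204 CPM, Npc2, the lumenal carrier of cholesterol, had 403 and 514 CPM, and Npc1, the membrane protein that takes cholesterol over from it, had 9.99 and 15.2 CPM. Grn, which encodes progranulin, the precursor of the granulins, had 51.8 and 65.5 CPM. The ratio of Psap, 1.54 in the sums, was 0.828 with equal weight per cell and 0.994 after thinning, and that of Grn went from 1.27 to 0.999 after thinning. The calcium channel gene Mcoln1 had 5.64 and 6.25 CPM, and Tfeb, the transcription factor of lysosomal genes, had 5.03 and 9.66 CPM, a ratio of 1.92 (1.63 to 2.26) below the minimum level.

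All but 1 of the 15 measured V-ATPase genes were higher in the cKIT- library, where 52.9% of all measured genes were. Atp6v1b2, the widely expressed B subunit of the catalytic V1 head, had 46.8 CPM in cKIT+ and 88.7 CPM in cKIT- cells, a ratio of 1.89 (1.79 to 2.00) that reached 2.05 with equal weight per cell and 2.01 after thinning. The d subunit Atp6v0d1 followed with 1.60 (1.53 to 1.68), the accessory protein Atp6ap1 with 1.58 (1.51 to 1.66) and the c″ subunit of the proteolipid ring, Atp6v0b, with 1.41 (1.36 to 1.45). Ratios between 1.27 and 1.38 were found for Atp6v1d, Atp6v1h, Atp6v1g1, Atp6v0e and Atp6v1f. Those of Atp6ap2, Atp6v0a2, Atp6v1a, Atp6v1c1 and Atp6v1e1 lay between 1.05 and 1.17, and the intervals for Atp6v1a (0.997 to 1.15) and Atp6v1c1 (0.983 to 1.14) included 1. The exception was Atp6v0a1, the a1 isoform of the large membrane subunit, with 101 CPM in cKIT+ and 78.4 CPM in cKIT- cells, a ratio of 0.780 (0.741 to 0.820). Atp6v0c, the main proteolipid, had only 87 and 38 UMIs. In the groups of cells gated by markers below it reached at most 5.44 CPM in the cKIT+ and 3.89 CPM in the cKIT- library. The V-ATPase sums thus hold almost nothing of this subunit, and the reason for its low count was not tested.

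A list of 65 other lysosome genes mostly had ratios above 1. Of the 48 with at least 10 CPM, 42 had a ratio above 1, 6 were at least 2-fold higher and 1 was 2-fold lower in cKIT- cells, beside 52.9%, 8.44% and 6.06% of all genes. The alpha-mannosidase Man2b1 had 371 CPM in cKIT+ and 877 CPM in cKIT- cells, a ratio of 2.36 (2.32 to 2.41). Ctse, an aspartic protease like Ctsd, had 165 and 367 CPM, a ratio of 2.23 (2.17 to 2.29). Galns, Cln3 and Pla2g15 had ratios of 2.21, 2.12 and 2.04. Gnptab, which encodes the enzyme that builds the mannose 6-phosphate sorting tag, had 19.4 and 6.21 CPM, a ratio of 0.320 (0.268 to 0.380). It was under 10 CPM in cKIT- cells and passed the minimum only through the cKIT+ cells, so it had to be lower.

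Shares of cells were set side by side at equal depth, with each cell thinned to 2000 UMIs and the 345 cKIT+ and 176 cKIT- cells below that depth set aside. Ctsd was then found in 73.5% of the cKIT- cells (72.0 to 74.9) but in 42.9% of the cKIT+ cells (41.6 to 44.1). At full depth the shares were 91.2% and 88.1%. Cells that carried B cell markers, at median depths of 2665 and 3223.5 UMIs, had a Ctsd UMI in 8.37% of the thinned cKIT- and 15.4% of the thinned cKIT+ cells. Cd63 was found in 89.9% of thinned cKIT- cells and 88.8% of thinned cKIT+ cells, against 1.40% and 6.15% of the cells with B cell markers.

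Since the sorts differed in makeup, cells were next gated by lists of marker genes that hold none of the 45 genes. The gates are rebuilt from these lists, so a gated cell is named for its markers alone. The basophil list (Mcpt8, Ms4a2, Fcer1a, Cd200r3, Gata2 and Cyp11a1) gated 2319 cKIT+ cells (35.8%) and 3174 cKIT- cells (86.7%). All 6 of its genes reached 20 CPM in both gates. The cKIT+ basophil gate also carried 8155 CPM of the 5 granulocyte-monocyte progenitor (GMP) markers, and the cKIT- basophil gate 4995 CPM; their part in the results was not tested. Cells that passed both of these lists at a similar level, 972 in the cKIT+ library, were kept apart. No doublet caller was run on either library.

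Within basophil-gated cells, Ctsd was again the gene that was at least 2-fold higher in cKIT- cells, with 752 CPM against 354 CPM, a ratio of 2.13 (2.07 to 2.18). Ctsl was the 1 gene at least 2-fold lower, with 10.1 against 21.0 CPM, a ratio of 0.482 (0.411 to 0.564). These were 1 of 30 measured genes in each direction, where 5.38% of all genes were 2-fold higher and 3.23% were 2-fold lower. Both calls lay near the limit, as Ctsd had a ratio of 1.95 at doubled gate minimums and Ctsl of 0.504 without the 10 most abundant genes in the scaling and of 0.552 with equal weight per cell. Atp6v0a1 lay just inside the limit with 82.6 against 161 CPM, a ratio of 0.512 (0.484 to 0.541). Cd63 differed little, with 2925 and 2686 CPM. Of the other lysosome genes, 38 of 42 measured had a ratio above 1 in this gate, beside 53.1% of all genes. Of these 42, 2 were at least 2-fold higher and 1 lower in cKIT- cells, beside 5.38% and 3.23% of all genes.

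The V-ATPase genes kept their direction in basophil-gated cells. They summed to 2251 CPM in cKIT- and 1879.7 CPM in cKIT+ cells, a ratio of 1.20 (1.18 to 1.21). Of 15 genes, 14 had a ratio above 1, beside 53.1% of all 7366 measured genes. Atp6v1b2 had 86.6 against 45.9 CPM, and Atp6v0b had 242 against 152 CPM, a ratio of 1.59 (1.53 to 1.66). Ctss and Lgmn, by contrast with the whole libraries, were nearly absent from the basophil gates, with 0.581 and 0.536 CPM for Ctss and 0.242 and 0.221 CPM for Lgmn. Ctss was found in 3 of 3034 thinned cKIT- cells and 2 of 2274 thinned cKIT+ cells of the gate.

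The basophil-gated cells were then divided by the share of their UMIs taken by Prss34, a basophil granule protease, into low (under 0.5%), middle and high (3% or more) cells. Prss34 was left out of the scaling for this comparison. The cKIT- library held 1170 low, 410 middle and 1594 high cells, and the cKIT+ library 382, 1051 and 886. Low cells of the sorts were unlike each other. In cKIT- low cells the proliferation gene Mki67 had 9.58 CPM and the chemokine gene Ccl6 6049 CPM, while cKIT+ low cells had 158 and 276 CPM. Their median depths were 2993 and 10715.5 UMIs, and the part of depth in the results was not tested.

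In the cKIT- library several genes were graded along this axis. Depth ran along it too, with medians of 2993, 4385 and 9132 UMIs in low, middle and high cells, and its part was not tested. Ctsd had 1425 CPM in low, 919.7 CPM in middle and 605 CPM in high cells, so that high cells had 0.425 times the level of low cells (0.410 to 0.440). Npc1 had 28.2, 25.5 and 9.18 CPM, and the level in high cells was 0.326 of that in low cells (0.249 to 0.427). It was under 10 CPM in high cells and passed the minimum only through the low cells, so it had to be higher in them. Atp6v1b2 had 157, 107 and 71.4 CPM, a ratio of 0.456 (0.410 to 0.506). For all 3 the middle cells lay between the low and the high cells. Atp6v0b, with 413, 284 and 208 CPM, had a ratio of 0.503 (0.473 to 0.536), just inside the 2-fold limit.

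Atp6v0a1 ran the other way. It had 45.9 CPM in low, 85.8 CPM in middle and 96.7 CPM in high cKIT- cells, 2.10 times higher in high cells (1.79 to 2.49). Thus 1 of 30 measured genes was at least 2-fold higher and 3 were at least 2-fold lower in high cells, where 14.2% of all genes were higher and 8.60% lower. Of the 3 lower genes, Npc1 had passed the minimum only through the low cells. Cd63 had 2228, 2785 and 3313 CPM in the same order, a ratio of 1.49 (1.45 to 1.52), and Lamp1 had 156, 271 and 280.2 CPM, a ratio of 1.80 (1.64 to 1.97). Npc2 had 743, 657 and 474 CPM, highest in low cells like Npc1. Of the 44 other lysosome genes measured, Ctse and Sgsh (4.55%) were at least 2-fold lower in high cells, with ratios of 0.442 and 0.186. At least 2-fold higher were 6 (13.6%), among them the sulfatase Arsb at 3.04 (2.68 to 3.46). Neither share lay above that of all genes, 8.60% and 14.2%. The levels of Sgsh in these groups are not given here, and it may have passed the minimum only through the low cells.

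**Figure D2:**
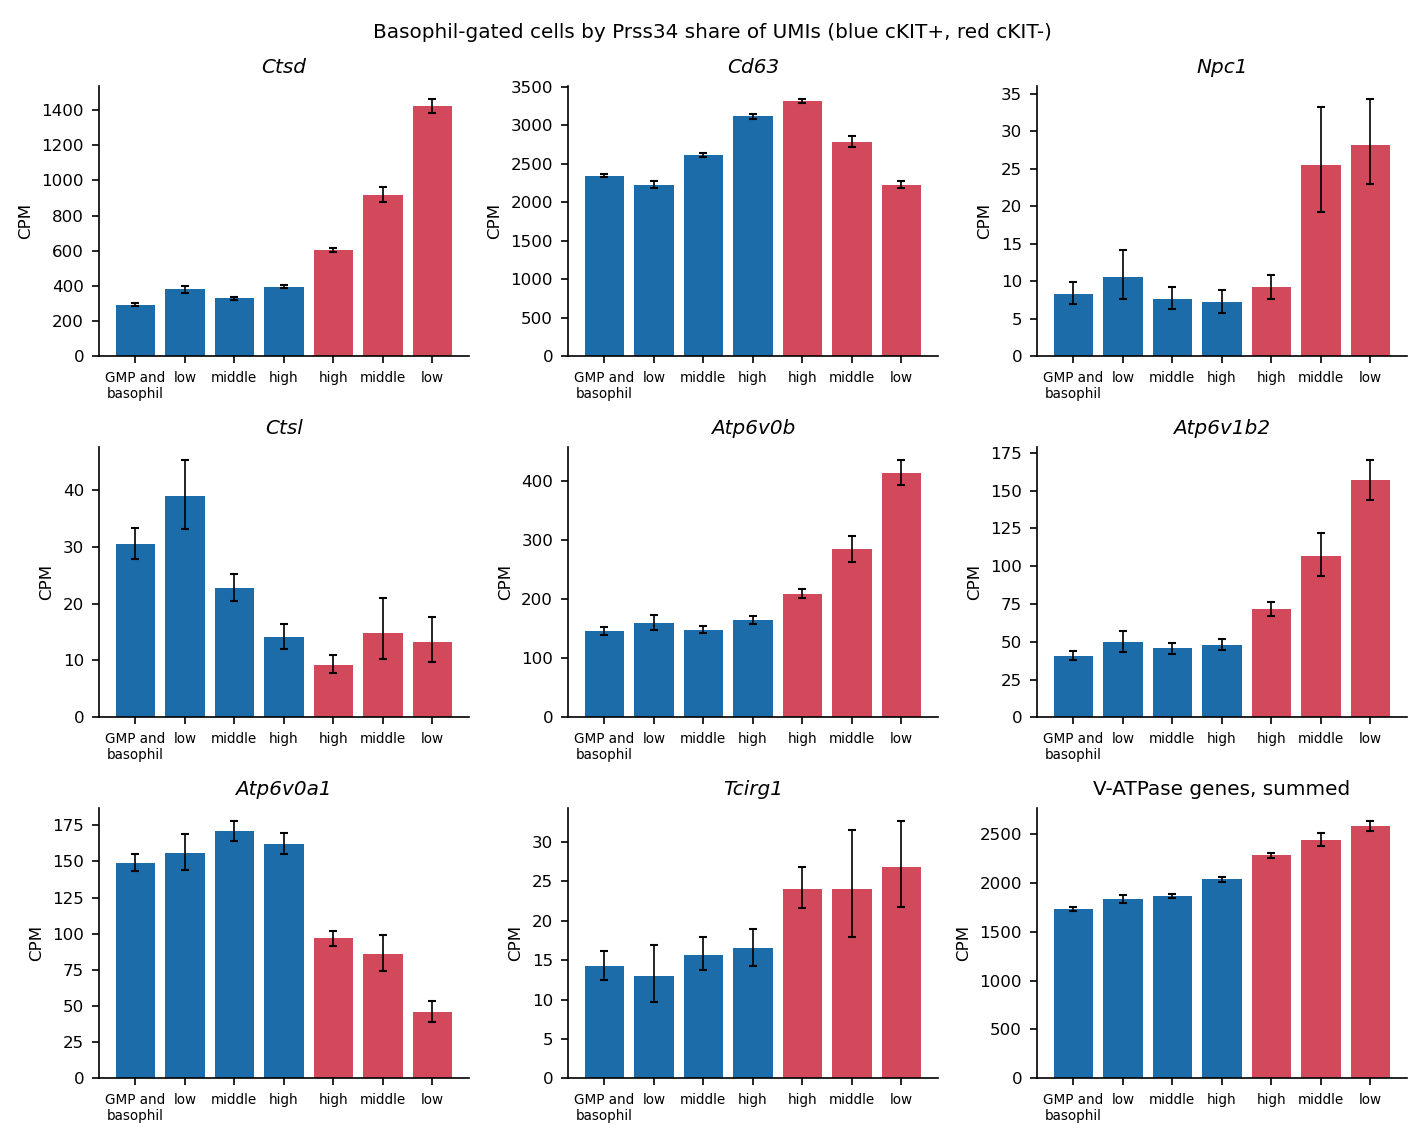
CPM in basophil-gated cells divided by Prss34 share, for cKIT+ cells that passed both the GMP and the basophil lists and for low, middle and high cells of the cKIT+ (blue) and cKIT- (red) libraries; bars start at 0 and error bars are 95% Poisson intervals for counting error. Ctsd, Atp6v0b and Atp6v1b2 are highest and Atp6v0a1 is lowest in cKIT- low cells, while the cKIT+ bars of these genes lie close together.

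In the cKIT+ library these genes lay closer together and 1 other gene passed 2-fold. Ctsl, which encodes the cysteine protease cathepsin L, had 38.9 CPM in low, 22.8 CPM in middle and 14.1 CPM in high cells, a ratio of 0.363 (0.291 to 0.453). It was 1 of 29 measured genes, where 2.63% of all genes were higher and 1.08% lower. Ctsd had 380.1, 331 and 397 CPM, Atp6v1b2 had 49.9, 45.6 and 48.0 CPM, and Atp6v0a1 had 156, 171 and 162 CPM. The intervals of their high over low ratios all included 1. Cd63 had 2231, 2614 and 3117 CPM, a ratio of 1.40 (1.37 to 1.43). Atp6ap2, an accessory subunit also known as the prorenin receptor, had 128, 182 and 225 CPM, a ratio of 1.76 (1.60 to 1.93), and in cKIT- cells the ratio was 1.70 (1.55 to 1.87). Among the 29 genes measured in both libraries, intervals lay above 1 in both for 5 and below 1 in both for 2, and 0 had intervals on opposite sides of 1. The same counts over all genes were not made, so these cannot be read as particular to the 29. Ctsb, which was lower in the whole cKIT- library, had 52.8, 45.5 and 54.3 CPM in low, middle and high cKIT+ cells. In the cKIT- library the same groups had 55.8, 65.9 and 68.0 CPM, each above all 3 cKIT+ values.

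The sorts were then compared within the high and within the low group, a comparison added after the data were seen. The groups had the same cut-offs but were not matched within them. High cells had a median Prss34 share of 5.69% in the cKIT- and 4.17% in the cKIT+ library, and low cells 0.0309% and 0.0752%. Median depths of high cells were 9132 and 13994 UMIs, and the part of these differences was not tested. Among high cells 0 of 29 genes passed 2-fold, where 1.84% of all genes were higher and 1.03% lower in cKIT- cells. Ctsd still had a ratio of 1.52 (1.47 to 1.58) and Atp6v0a1 of 0.596 (0.555 to 0.639). Among low cells 4 of 30 genes were at least 2-fold higher and 2 at least 2-fold lower in cKIT- cells, where 15.9% of all genes were higher and 18.2% lower. Ctsd was 3.75 times higher (3.54 to 3.97), Atp6v1b2 3.14 times (2.67 to 3.70), Npc1, on 100 and 44 UMIs, 2.67 times and Atp6v0b 2.58 times (2.36 to 2.83). Ctsl had a ratio of 0.341 (0.241 to 0.474) and Atp6v0a1 of 0.294 (0.246 to 0.350).

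The values of other isoforms of the large membrane subunit were set beside these. Atp6v0a2, the a2 isoform, had 30.5 CPM in cKIT+ low and 34.4 CPM in cKIT- low cells, a ratio of 1.13 (0.873 to 1.46). Tcirg1, the a3 isoform known from osteoclasts and 1 of the other lysosome genes, had 26.8 CPM in cKIT- low cells, 2.07 times its level in cKIT+ low cells (1.46 to 2.94). Of the other lysosome genes measured here, 13 of 45 were at least 2-fold higher in cKIT- low cells and 3 were at least 2-fold lower, beside 15.9% and 18.2% of all genes. They included Ctse, with 717 against 199 CPM, the phospholipase Pla2g15 at 3.46 (2.54 to 4.77) and the small GTPase Rab7, which directs late endosomes, at 2.06 (1.82 to 2.33). Among high cells of the sorts 0 of 42 passed 2-fold in either direction, where 1.84% of all genes were higher and 1.03% lower.

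The summed V-ATPase genes were set side by side over these groups, and over the cells kept apart from the basophil gate, in an order chosen after the data were seen. The sum was 1733 CPM in cKIT+ cells that passed both the GMP and basophil lists, then 1835, 1867 and 2040.1 CPM in low, middle and high cKIT+ cells. In the cKIT- library it was 2285 CPM in high, 2443 CPM in middle and 2583 CPM in low cells. The lysosomal genes without Cd63 had 1637, 1734, 1648 and 1779 CPM in the cKIT+ groups and 2113, 2595 and 2958 CPM in the cKIT- groups. Of the 2958 CPM in cKIT- low cells, 1425 CPM came from Ctsd.

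The macrophage, monocyte and dendritic gates differed more from the basophil gate, mainly in lysosomal genes. In the cKIT+ library the macrophage gate (C1qa, C1qb, C1qc, Vcam1, Adgre1, Axl and Slc40a1; 89 cells, median 3142 UMIs) had 18 of 20 lysosomal genes at least 2-fold above the basophil gate and Cd63 below it. Of these 18, Cd68, Ctss, Lgmn, Tfeb, Mcoln1 and Npc1 (6) had under 10 CPM in the basophil gate and passed the minimum only through the macrophage gate, so that they had to be higher, and the other 12 had at least 10 CPM in both gates. Over all the genes, 25 of 35 were higher and 2 lower, where 24.8% of all genes were higher and 19.1% lower. All 7 macrophage markers reached 20 CPM in this gate, which also carried 20949 CPM of the dendritic list, against 18865 CPM of its own. The lysosomal genes without Cd63 summed to 26746 CPM against 1666 CPM, 16.1 times higher (15.7 to 16.4).

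**Figure D3:**
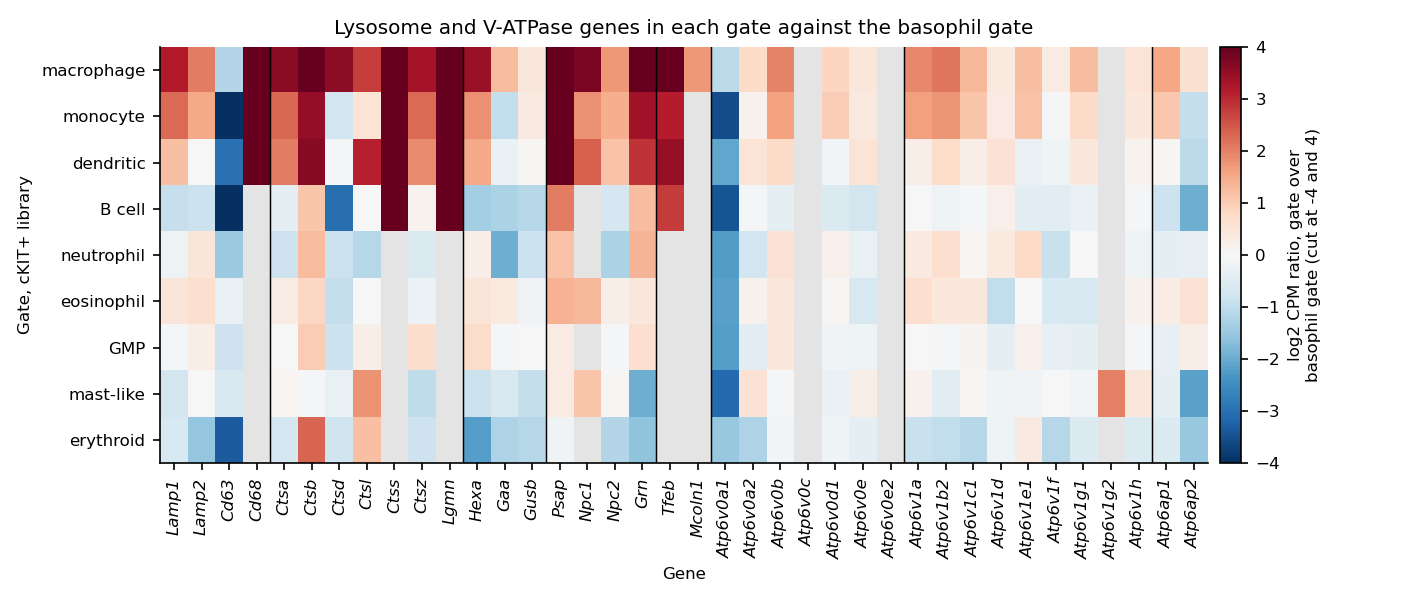
log2 ratio of CPM in each gate over the basophil gate of the cKIT+ library, for 38 genes grouped by role and cut at -4 and 4; grey marks a mean below 10 CPM. Most lysosomal genes are red in the macrophage, monocyte and dendritic gates, and Cd63 and Atp6v0a1 are blue in all 9 gates, with Cd63 palest in the eosinophil gate at 2178 against 2686 CPM.

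Psap had 6104 CPM in the macrophage gate and 53.8 CPM in the basophil gate, a ratio of 113 (106 to 121). Ctsb had 4674 against 48.6 CPM, a ratio of 96.1 (89.7 to 103). Ctss, with 1489 against 0.536 CPM, and Lgmn, with 1057 against 0.221 CPM, rested on 17 and 7 UMIs in the basophil gate, and Lgmn was the gene with the larger ratio, 4792 (2304 to 11999). Ctsd, the leading cathepsin difference between the sorts, was also 12.0 times higher (11.3 to 12.6) at 4231 CPM. Tfeb had 76.1 against 3.88 CPM, a ratio of 19.6 (12.5 to 29.8). Gusb was the 1 lysosomal gene within 2-fold.

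The V-ATPase genes had smaller ratios in the macrophage gate. Of 15 measured, 7 were at least 2-fold higher, led by Atp6v1b2 at 4.38 (3.42 to 5.54), Atp6v0b at 3.99 (3.47 to 4.56) and the catalytic A subunit Atp6v1a at 3.75 (2.81 to 4.92). Atp6v0a1 was lower, with 78.8 against 161 CPM, a ratio of 0.489 (0.327 to 0.703). The sum was 3661 against 1879.7 CPM, a ratio of 1.95 (1.84 to 2.06). Among the other lysosome genes, 38 of 59 were at least 2-fold higher and 4 lower, beside 24.8% and 19.1% of all genes.

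**Figure D4:**
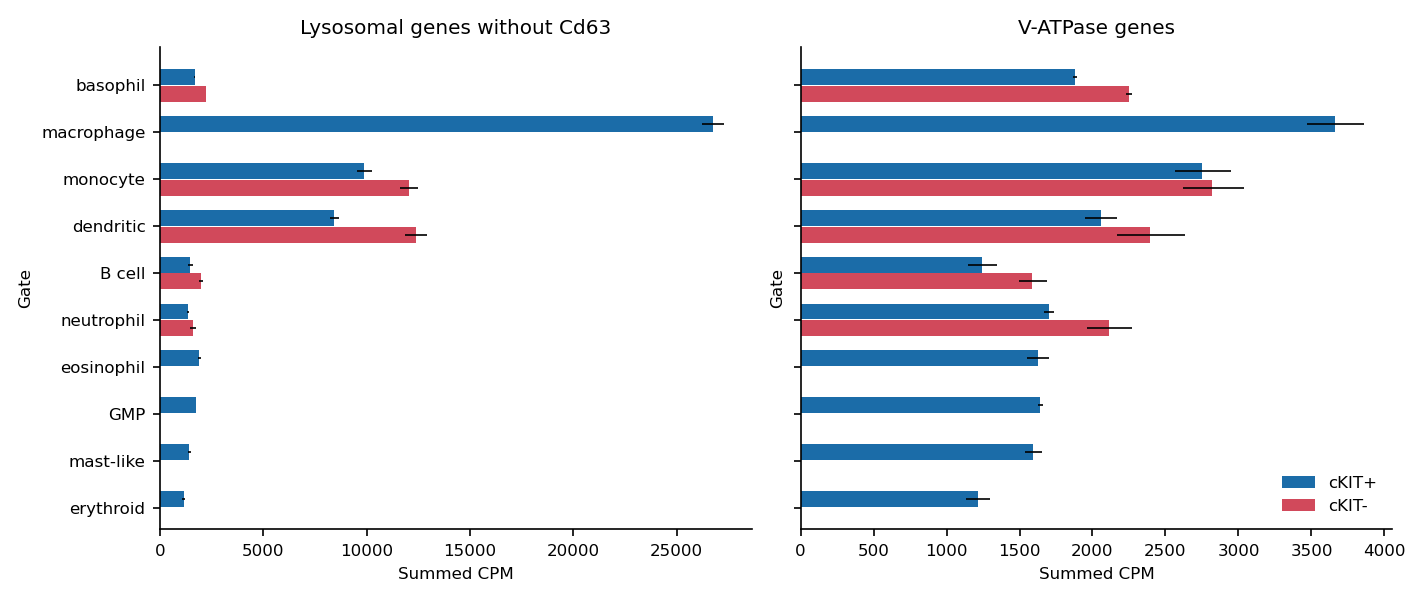
Summed CPM of the lysosomal genes without Cd63 (left) and of the V-ATPase genes (right) in each gate of the cKIT+ (blue) and cKIT- (red) libraries, with 95% Poisson intervals for counting error; gates of under 20 cells are not drawn. The lysosomal sum runs from 1139 CPM in the erythroid gate to 26746 CPM in the macrophage gate, and the V-ATPase sum from 1214 to 3661 CPM.

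The cKIT- library held too few macrophage-gated cells (6) to give values. The monocyte gate (44 cKIT+ and 35 cKIT- cells) and the dendritic gate (90 and 28 cells) also had many lysosomal genes above the basophil gate. Cd68, Ctss, Lgmn and Tfeb passed the minimum only through these gates in both libraries, as did Npc1 in the cKIT+ library, and had to be higher there. The same held for Mcoln1, on 5 UMIs, in the cKIT- dendritic gate. In the cKIT- library Cd63 and Atp6v0a1 passed only through the basophil gate and had to be lower in these gates. In the cKIT+ monocyte gate 20 of 34 genes were at least 2-fold higher than in the basophil gate and 2 lower, where 20.5% of all genes were higher and 12.6% lower. In the cKIT- library, the monocyte gate had 17 of 34 higher and 3 lower, against 21.4% and 14.4%. The lysosomal genes without Cd63 summed to 9880.0 CPM in the cKIT+ and 12045 CPM in the cKIT- monocyte gate. Psap had 3872 and 5445 CPM there. Ctsd was lower, with 209 CPM in the cKIT+ monocyte gate against 354 CPM in basophils, and 260.4 against 752 CPM in the cKIT- library.

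In the cKIT+ dendritic gate 14 of 34 genes were at least 2-fold higher and 3 lower, where 17.0% of all genes were higher and 12.6% lower, and all 14 were lysosomal. Ctsl had 181 CPM in the cKIT+ and 1341 CPM in the cKIT- dendritic gate, against 21.0 and 10.1 CPM in the basophil gates. In the cKIT- dendritic gate 13 of 35 were higher and 3 lower, against 23.2% and 17.4%, and 0 of 15 V-ATPase genes were 2-fold higher in either dendritic gate. In the cKIT+ B cell gate (70 cells) 6 of 32 genes were higher and 7 lower, where 13.1% of all genes were higher and 12.1% lower. In the cKIT- B cell gate (225 cells) 5 of 32 were higher and 7 lower, against 19.1% and 15.3%, and this gate carried 18752 CPM of the dendritic list beside 15785 CPM of its own. Ctss, Lgmn and Tfeb, 3 of the higher genes in each library, had under 10 CPM in both basophil gates. They passed the minimum only through the B cell gates and had to be higher there. Ctss had 215 CPM in the cKIT+ and 459 CPM in the cKIT- B cell gate. Ctsd, at 43.9 and 54.3 CPM, was low beside the basophil gates.

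In the cKIT+ library Cd63 and Atp6v0a1 were highest in the basophil gate, and in the cKIT- library Ctsd, at 752 CPM with 513 CPM in the next gate, and Atp6ap2, at 219 and 139 CPM, were highest there too. The cKIT- library had values for only 5 gates, with no macrophage or eosinophil gate among them. In the cKIT+ library Ctsd had 4231 CPM in the macrophage gate and 354 CPM in the basophil gate. Atp6ap2 had 283 CPM in the macrophage and 278 CPM in the eosinophil gate, both above the cKIT+ basophil gate. Of 38 genes with at least 10 CPM in a cKIT+ gate, 31 were highest in the macrophage gate, 3 in the dendritic gate, 2 in the basophil gate and 1 each in the mast-like and monocyte gates. The share of all genes highest in each gate was not worked out, so these counts cannot be read as particular to these genes. Cd63 had 2686 CPM in the cKIT+ basophil gate, followed by 2178 CPM in the eosinophil gate. The mast-like gate (Gzmb, Cma1 and Kit; 211 cells) had 1756 CPM, the GMP gate (1036 cells) 1501 CPM, the macrophage gate 1185 CPM and the neutrophil gate (475 cells) 952 CPM. The dendritic, erythroid, B cell and monocyte gates had 341, 265, 39.7 and 27.4 CPM. The cKIT+ erythroid, neutrophil and mast-like gates carried 2569.7, 2552 and 2163 CPM of the basophil list, and the other gates 140.4 to 1299 CPM. The cKIT+ basophil gate had 28538 CPM of that list, and the part of such cells or RNA in these values was not tested. The cKIT- monocyte gate held 2 Cd63 UMIs, 7.77 CPM, against 2925 CPM in its basophil gate, a ratio of 0.00266 (0.000322 to 0.00960).

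Atp6v0a1 had 161 CPM in the cKIT+ basophil gate and was at least 2-fold lower in all 9 other cKIT+ gates, with 34.9 CPM in the GMP gate, 35.8 CPM in the eosinophil gate and 18.7 CPM in the mast-like gate. The macrophage gate was nearest, at 78.8 CPM, and its ratio of 0.489 became 0.606 after thinning, 0.512 without the 10 most abundant genes in the scaling and 0.502 with the cells of both lists added to the basophils. The ratio of the erythroid gate, 0.347 in the sums, turned to 1.02 with equal weight per cell. In the cKIT- library the basophil gate had 82.6 CPM and the neutrophil gate, the next in order, 40.5 CPM. Of the GMP gate's 29 measured genes, Atp6v0a1 was the 1 past 2-fold lower and Ctsb, at 99.1 against 48.6 CPM, the 1 past 2-fold higher, where 6.34% of all genes were lower and 4.43% higher.

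The other granulocyte and progenitor gates differed in single genes. In the mast-like gate 3 of 31 genes were at least 2-fold higher and 4 lower, where 12.3% of all genes were higher and 7.19% lower. Ctsl was 3.48 times higher there (2.86 to 4.21), Npc1 2.14 times (1.41 to 3.16) and the G2 subunit Atp6v1g2 4.02 times (2.61 to 6.01), while Atp6ap2 had 41.9 against 186 CPM and Grn 9.05 against 35.3 CPM. Npc1 (7.66 CPM) and Atp6v1g2 (4.22 CPM) were under 10 CPM in the basophil gate and passed the minimum only through the mast-like gate, as Npc1 did through the eosinophil gate. Grn passed it only through the basophil gate. The eosinophil gate (190 cells) had Psap and Npc1 higher, 2 of 30 genes, and Atp6v0a1 lower, where 10.2% of all genes were higher and 8.15% lower. Psap had 141 against 53.8 CPM.

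The neutrophil gate of the cKIT+ library had 3 of 29 genes at least 2-fold higher (Ctsb, Psap and Grn) and 5 lower (Cd63, Ctsl, Gaa, Npc2 and Atp6v0a1), where 6.55% of all genes were higher and 21.4% lower. Ctsl, at 9.51 CPM in this gate, passed the minimum only through the basophil gate. The neutrophil markers summed to 357619 CPM in this gate, and the median log2 ratio of all measured genes was -0.52. With the 10 most abundant genes left out of the scaling the V-ATPase sum of this gate turned from 0.904 to 1.29 times that of the basophil gate, and the lysosomal sum without Cd63 from 0.806 to 1.15 times. In the cKIT- neutrophil gate (58 cells, with 4618 CPM of the basophil list) 4 of 30 genes were higher and 6 lower, where 9.01% of all genes were higher and 46.4% lower. Of the 4, Cd68 and Tfeb, on 7 and 10 UMIs, passed the minimum only through the neutrophil gate and had to be higher there. Of the 6, Gaa passed it only through the basophil gate. In the erythroid gate (61 cells), 2 of 29 genes were at least 2-fold higher and 12 lower, where 11.1% of all genes were higher and 23.5% lower, and the lysosomal sum without Cd63 was 1139 CPM. Ctsb had 242 against 48.6 CPM in this gate, a ratio of 4.99 (4.23 to 5.85). The erythroid markers summed to 190904 CPM there.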

How the data were processed

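The cKIT+ and cKIT- sorts had been sequenced as 1 library each. For each library the authors deposited a sparse matrix of UMI counts, not normalised, made with Cell Ranger 3.0.2 on mm10 per the submitters' processing notes. The annotation release was not given in the sources used here, and the sources name different versions of the 10x kit. As in the study's methods, cells in the highest and lowest 1% of genes or the highest 1% of UMIs were removed, which kept 6479 of 6632 cKIT+ and 3662 of 3745 cKIT- cells (91108781 and 22869169 UMIs). No doublet caller was run.

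UMIs were summed over cells and scaled to CPM. Genes with a mean of at least 10 CPM over the compared groups were counted as higher or lower past 2-fold. Intervals were exact Poisson (sums) or exact binomial (ratios and shares) at 95%. Cells were gated where the UMIs of a marker list reached 0.1 to 0.5% of a cell's UMIs with at least 2 or 3 of its genes detected, and gates of under 20 cells were left out. In a simulation of the sort comparison on 7589 genes, 189 of 200 genes changed 4-fold were called, with 0 false calls. With 1 library per sort it could not show how often differences between libraries or animals give a call. It also does not tell how changes nearer to 2-fold are called. The genes and lists were chosen with earlier results of these data known. Named were the listed and V-ATPase genes and, of the other lysosome genes, those past 2-fold between the sorts, except for results not reported here. Arsb, Sgsh, Rab7 and Tcirg1 were named after their values were seen. Python 3.11.15, NumPy 2.4.6, SciPy 1.17.1, pandas 2.3.3, Matplotlib 3.10.9 and, for TMM scaling as an alternative, edgeR 4.0.16 in R 4.3.3 were used.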

Additional observations from a re-analysis of the deposited data

How the results depend on the processing

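Each sort was 1 library, so sort, library, depth and animals cannot be told apart, and all intervals cover counting error only. Gates of 28 to 90 cells rest on few UMIs per gene. Of 3889 values under alternatives, 146 counts of genes stayed within 1.5 times and 38 moved. Of the ratios, 3181 stayed within their interval, 505 moved and 19 changed direction. The cause was not tested. The share of all genes called under each alternative is not given here. The counts of genes below therefore show only how the calls moved and cannot be read as particular to these genes. No paired analysis was possible because the labels give 1 library per sort and no result came from a test.

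Between the sorts, 2 genes were higher in cKIT- cells with every cell given the same weight, after thinning to 2000 UMIs and without the 10 most abundant genes in the scaling, and 7 were at 1.5-fold. In the same weighting and after thinning 1 gene was lower. Lamp1 turned to 0.889 with equal weight and 0.975 after thinning, Psap to 0.828 and 0.994, and Grn to 0.999 after thinning. Ctsd stayed between 2.41 and 2.65. Of the other lysosome genes 3 were higher with equal weight or at a mean of at least 50 CPM and 16 at 1.5-fold, while 4 were lower with equal weight, 3 after thinning or at 1.5-fold, and 0 at 50 CPM. TMM factors were 1.012 and 0.988. Leaving out the 10 most abundant genes shifted the median log2 ratio of all genes to 0.14.

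In basophil-gated cells 3 genes were higher with equal weight or thinning, 5 at 1.5-fold and 0 at doubled gate minimums, and 2 were lower after thinning, without the 5% of cells with most UMIs or at 1.5-fold, and 0 without the 10 most abundant genes or at 50 CPM. Lamp1 turned to 0.960 with equal weight and Hexa to 1.01 after thinning. Ctsd ranged from 1.95 to 2.50 and Ctsl from 0.429 to 0.552. For high over low Prss34 in cKIT- cells 0 genes were higher with equal weight, 3 at 1.5-fold and 2 between the 20% of cells with the lowest and the highest Prss34 share, 5 were lower at 1.5-fold, and Psap turned to 0.989 at doubled gate minimums. In cKIT+ cells 0 were lower at 50 CPM and 2 were higher at 1.5-fold.

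Between low-Prss34 cells of the sorts 8 genes were higher at 1.5-fold and 7 at doubled gate minimums, and 4 were lower at 1.5-fold and 1 at 50 CPM. Ctsd ranged from 2.79 to 4.42 and Atp6v0a1 from 0.253 to 0.317. Between high-Prss34 cells 1 was higher and 2 lower at 1.5-fold, and Atp6v1f turned to 0.966 after thinning.

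Over the 9 other gates of the cKIT+ library, 76 pairs of gene and gate were higher and 37 lower, with 69 lower at 1.5-fold. The share of all genes is given above for each gate at 2-fold, and none is given for the pooled pairs. Some pairs of each direction, named above, passed the minimum through 1 of the 2 gates only, so their direction was fixed. In the macrophage gate 1 gene was lower after thinning, without the 10 most abundant genes or with cells passing both the GMP and basophil lists added to the basophils, an alternative chosen after seeing the data. In the erythroid gate Atp6v1c1 turned to 1.01 with all deposited cells, Ctsl to 0.819 with equal weight and 0.451 without the 5% of cells with most UMIs, and Atp6v0a1 to 1.02 with equal weight. The lysosomal sum without Cd63 turned to 1.01 with equal weight and 1.03 after thinning in the B cell gate, to 0.986 after thinning and 0.982 without the 10 most abundant genes in the GMP gate, and to 1.15 in the neutrophil gate, where the V-ATPase sum turned to 1.29.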

Other observations

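Some cells passed no marker list, 782 in the cKIT+ and 93 in the cKIT- library. In the cKIT- cells without a gate, at a median of 2483 UMIs, Ctsd had 1499.8 CPM (1353 to 1658), beside 1425 CPM in low-Prss34 basophil-gated cells of that library. In the cKIT+ cells without a gate it had 235 CPM (225 to 246). The V-ATPase genes summed to 2275 and 1391 CPM in these cells.

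Ctsl in the cKIT- library came from few cells. Of its 527 UMIs, 231 lay in the 28 cells of the dendritic gate, and 20.1% lay in the 5 cells with most. In the cKIT+ library the mast-like gate, with 73.0 CPM, and the cells without a gate, with 89.2 CPM, both lay above the 21.0 CPM of the basophil gate.

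The sum of the lysosomal genes and that of the V-ATPase genes spread differently over the cKIT+ gates. The lysosomal sum without Cd63 was 16.1 times the basophil level in the macrophage gate and 0.684 times in the erythroid gate, while the V-ATPase sum was 1.95 and 0.646 times. The difference between the sums was not tested.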
